A study of Mus musculus with 6 samples.

Results

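The genes described here make sterols, control that synthesis, or move and store cholesterol. They were listed by name, 31 in all, and matched to array probes through gene symbols and older synonyms, so that Msmo1 was found under its older symbol Sc4mol. The match gave 28 genes, each with 1 probe, among 16390 named genes on the array; Acat2, Hmgcs1 and Fdps had no named probe and were not analysed here. By role they were 15 of 18 listed enzymes of sterol synthesis, all 5 SREBP regulators, all 4 LXR and efflux genes, and all 4 genes of sterol transport and storage.

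Cholesterol is built in the endoplasmic reticulum and cytosol by a chain of enzymes that passes through mevalonate, farnesyl diphosphate, squalene and lanosterol. When sterols in the membrane run low, the sensor Scap carries SREBP transcription factors to the Golgi, where they are cut free to switch on these enzymes; when sterols are plentiful, Insig proteins hold Scap back. LXR nuclear receptors work the other way: bound by oxidised sterols, they switch on genes such as Abca1 and Abcg1, whose products export cholesterol. Dividing lymphocytes need sterols for new membrane, and activated lymphocytes are known to raise SREBP activity.

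RNA came from CH12F3-2A, an established mouse B cell lymphoma line used to study the switch from IgM to IgA, and was read on 1-colour arrays as intensities in arbitrary units. In the group called siControl (3 samples) a control siRNA was electroporated, and in the group called siSpt6 (3 samples) an siRNA against Spt6, a histone chaperone of transcribing RNA polymerase II encoded by Supt6. Both groups grew in medium with fetal calf serum, were given CD40L, IL4 and TGFb (CIT) 24 h after transfection, and were harvested after another 24 h. The study asked what Spt6 does in class switching, and the arrays show which transcripts differ when its siRNA is given. All samples are of 1 cell line, and the labels do not say whether replicates were separate cultures, so p-values measure the spread between these samples only. The labels name a Stealth siRNA for siSpt6 alone and give the amount of 2-mercaptoethanol in the medium in different units for each group; they give no slide or scan date, so a batch that coincided with the groups cannot be told apart from the siRNA.

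The Supt6 probe read 33.1, 32.1 and 32.1 in siControl and 25.1, 21.8 and 28.1 in siSpt6. It was lower on each siSpt6 array, with a log2 difference of -0.38 (SE 0.13) that did not pass the threshold (limma adjusted p = 0.0973). Of the B cell markers 7 of 9 with a probe exceeded the array median on every array; Pax5 and Ighm did not do so. Of these 9, Cd79b and Blk rose (log2 differences 0.55 and 0.72, limma adjusted p = 0.0391 and 0.0393) and Cd22 fell (-0.62, 0.0281); their summed intensity was 30420 to 34470 in siControl and 31410 to 34670 in siSpt6. Across all tested probes 8.9% were called lower and 7.43% higher (limma, Benjamini-Hochberg adjusted p under 0.05), and the median log2 difference was 0.01. Of all calls, 45.5% were higher, against 57.3% after quantile normalization. The count of lower probes, 1922, dropped to 1052, 1106, 1232 and 1054 without siControl replicate 1, siControl replicate 2, siSpt6 replicate 1 and siSpt6 replicate 2; the count of higher probes, 1603, dropped to 1047 without siControl replicate 1.

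Most enzymes of sterol synthesis were lower in siSpt6, whereas the LXR and efflux genes were higher. Of 15 measured enzymes 12 fell and 0 rose, where 8.9% of all probes were called lower and 7.43% higher, with a median log2 difference of -1.43. Most of these enzymes were bright. Among probes at or above the median brightness, tested alone, 2515 of 10792 were lower and 1459 higher, and 11 enzymes fell. Pmvk was under that brightness and was not tested there. In bulk RNA of 1 cell line, a change in some of the cells and a change in all of them cannot be told apart. Of the 5 SREBP regulators 2 fell and 1 rose (median -0.44). Of the 4 LXR and efflux genes 3 rose and 0 fell (median 1.19). Of the 4 transport and storage genes 2 fell and 1 rose; Stard4 and Npc1 moved in opposite directions, and the median of -0.09 changed sign under quantile normalization (0.06), under cyclic loess (0.02) and without siSpt6 replicate 2 (0.06). Together 16 of the 28 genes fell and 5 rose. Under the alternative settings run, 18 of these 21 calls were kept in each setting that tested the gene; the 3 that were not, Pmvk, Srebf2 and Soat1, are described with their values.

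**Figure D1:**
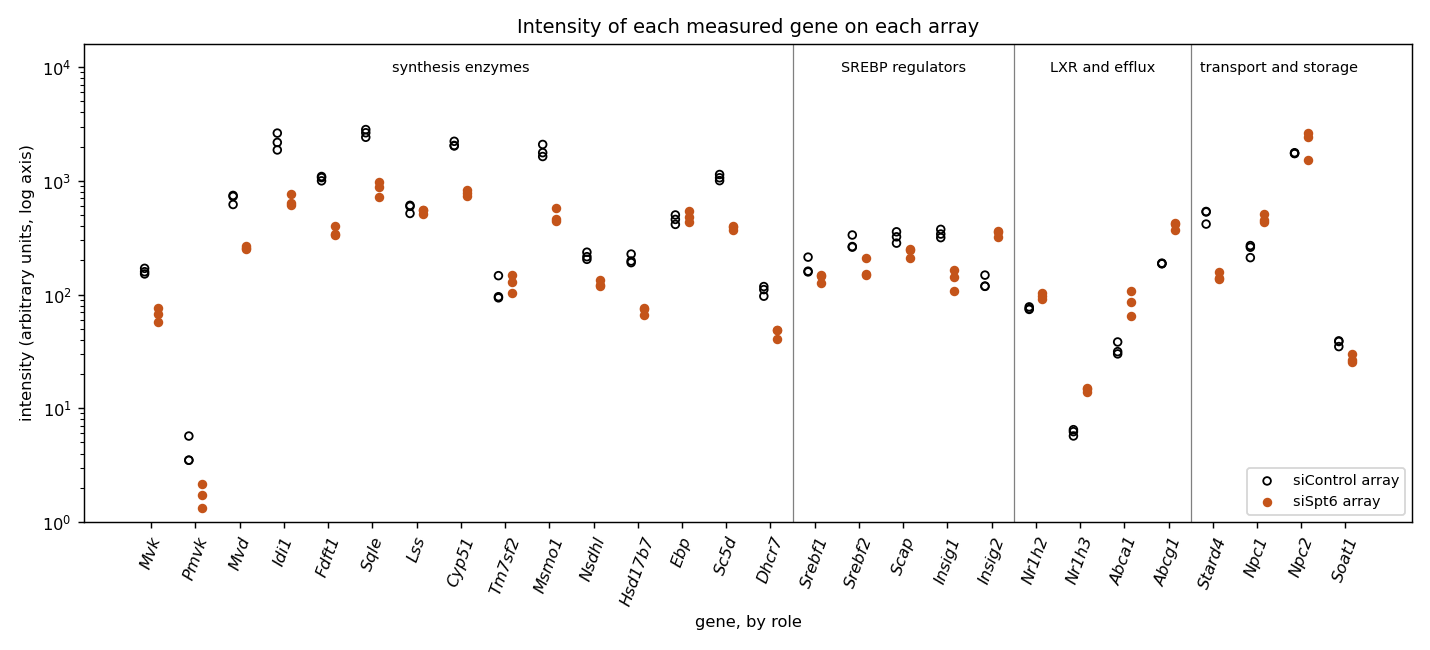
Intensity (arbitrary units, log axis) of each measured gene on each array, grouped by role; open circles are the 3 siControl arrays and filled circles the 3 siSpt6 arrays. For 12 of 15 synthesis enzymes all siSpt6 points lie under all siControl points, and for all 4 LXR and efflux genes they lie above. Over all probes with 6 values, siSpt6 values lay entirely under for 20.4% and entirely above for 16.9%. Of the 4 LXR and efflux genes, Nr1h2 did not pass the test.

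The first measured steps turn mevalonate into the isoprene unit. Mvk, mevalonate kinase, read 152, 159 and 170 in siControl and 76.0, 67.1 and 57.8 in siSpt6. These values do not overlap, and Mvk fell 2.41-fold (log2 difference -1.27, SE 0.14, limma adjusted p = 0.00244). Folds were taken from log2 differences and so compare geometric means. Mvd, which decarboxylates mevalonate diphosphate, read 620, 730 and 745 in siControl and 251, 255 and 268 in siSpt6. It fell 2.70-fold (log2 difference -1.43, SE 0.12, limma adjusted p = 0.0011). Idi1, the isomerase that yields dimethylallyl diphosphate, read 2632, 2178 and 1871 in siControl and 766, 645 and 620 in siSpt6. Idi1 fell 3.27-fold (log2 difference -1.71, SE 0.17, limma adjusted p = 0.00163), with groups well apart although the siControl values spread widely.

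Pmvk, phosphomevalonate kinase, gave a dim signal: 91.8% of tested probes were brighter. It read 5.70, 3.50 and 3.49 in siControl and 1.33, 2.18 and 1.72 in siSpt6. The groups do not overlap and the log2 difference was -1.26 (SE 0.26, limma adjusted p = 0.0193). The call was lost without siSpt6 replicate 1 (limma adjusted p = 0.054) and without siSpt6 replicate 3 (0.0553), and a pseudocount of 2.66 brought the log2 difference to -0.63. No detection limit is stated for such dim values.

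The enzymes that commit carbon to sterols were lower too. Fdft1, squalene synthase, read 1069, 1001 and 1093 in siControl and 398, 335 and 344 in siSpt6, a 2.94-fold fall. Sqle, squalene epoxidase, a rate-limiting oxygen-dependent step, read 2650, 2419 and 2827 in siControl and 972, 728 and 889 in siSpt6. Sqle fell 3.07-fold (log2 difference -1.62, SE 0.15, limma adjusted p = 0.00135), with no overlap between groups.

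Lss, lanosterol synthase, makes the first ring-closed sterol and comes right after Sqle in the chain. Lss read 609, 517 and 597 in siControl and 509, 549 and 553 in siSpt6. The groups overlap; the log2 difference was -0.09 (95% confidence interval -0.38 to 0.19, limma adjusted p = 0.66), and it was 0.09 after quantile normalization and 0.07 after cyclic loess. The interval leaves out a fall as large as that of any of the 12 enzymes called, the smallest of which was -0.81.

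After lanosterol, the methyl groups at carbon 4 and carbon 14 are removed. Cyp51, the lanosterol 14-demethylase, read 2049, 2229 and 2029 in siControl and 740, 829 and 781 in siSpt6, and fell 2.69-fold (log2 difference -1.43, SE 0.11, limma adjusted p = 0.000865). Msmo1, the methylsterol monooxygenase, showed the largest fall of the 28 genes. It read 2091, 1770 and 1638 in siControl and 577, 443 and 460 in siSpt6, a 3.72-fold fall (log2 difference -1.90, SE 0.16, limma adjusted p = 0.000986). Only 0.121% of all tested probes had a lower log2 difference than Msmo1.

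Nsdhl and Hsd17b7 act with Msmo1 on the same methyl groups. Hsd17b7, a ketosteroid reductase, read 191, 197 and 227 in siControl and 74.96, 65.7 and 76.1 in siSpt6, a 2.84-fold fall. Nsdhl, the decarboxylating dehydrogenase, read 215, 236 and 204 in siControl and 120, 119 and 133 in siSpt6. Its 1.76-fold fall (log2 difference -0.81, SE 0.12, limma adjusted p = 0.00632) was the smallest among the enzymes called, although its groups do not overlap.

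The last steps shift and saturate double bonds of the sterol ring. Sc5d, the desaturase at carbon 5, read 1065, 1005 and 1138 in siControl and 394, 370 and 404 in siSpt6, a 2.74-fold fall. Dhcr7, which makes cholesterol from its last precursor in one branch, read 111, 96.8 and 118 in siControl and 40.6, 48.8 and 48.7 in siSpt6. Dhcr7 fell 2.35-fold (log2 difference -1.24, SE 0.14, limma adjusted p = 0.00255), with no overlap between groups.

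A pair of enzymes of the steps after lanosterol did not pass the test. Tm7sf2, a sterol 14-reductase, read 95.8, 147 and 93.6 in siControl and 103, 129 and 149 in siSpt6, and the values overlap (log2 difference 0.20, 95% confidence interval -0.33 to 0.73, limma adjusted p = 0.616). Ebp, the isomerase that moves a ring double bond, read 458, 501 and 414 in siControl and 431, 546 and 484 in siSpt6 (log2 difference 0.09, 95% confidence interval -0.25 to 0.42, limma adjusted p = 0.736).

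Read as a chain, the 12 falls ran from mevalonate kinase to Dhcr7, interrupted at Lss, Tm7sf2 and Ebp. Their folds ran from 1.76 to 3.72 and their limma adjusted p from 0.000815 to 0.0193. All 12 had siSpt6 values entirely under the siControl values; over probes with 6 values that was so for 20.4%, and values entirely above for 16.9%. Averaged over the 15 enzymes, the level relative to the siControl mean was -1.15, -1.14 and -1.12 on the log2 scale in the siSpt6 samples and between -0.03 and 0.03 in the siControl samples, so no 1 array carried the difference. The median of -1.43 was -1.26 after quantile normalization and -1.28 after cyclic loess.

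**Figure D2:**
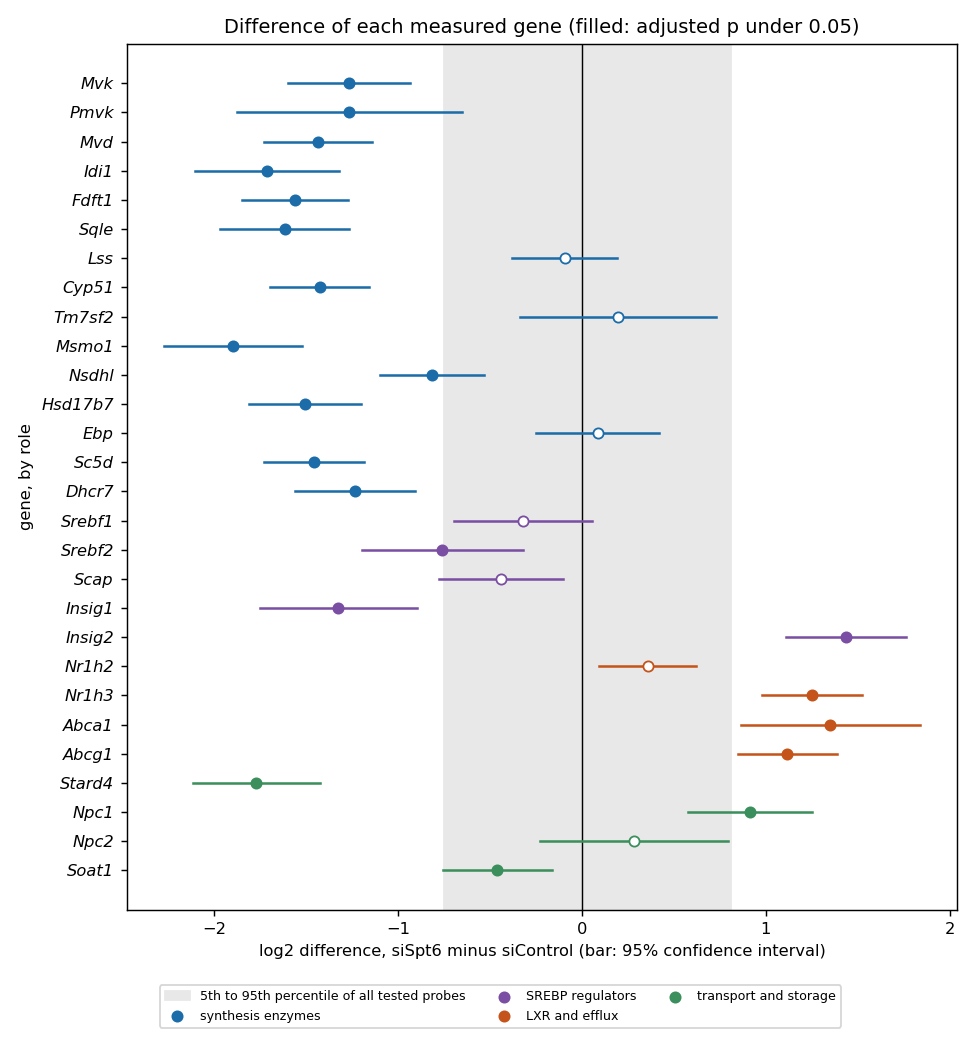
Log2 difference, siSpt6 minus siControl, of each measured gene with its 95% confidence interval (3 arrays per group), coloured by role; filled points passed the threshold of 0.05 and the grey band spans the 5th to the 95th percentile of all tested probes (-0.75 to 0.81). The points of the enzymes that fell lie to the left of the band, while those of Insig2, Nr1h3, Abca1, Abcg1 and Npc1 lie to its right.

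Promoter sequences were searched because SREBP is known to bind weakly by itself and to act with NF-Y, which binds CCAAT, and with Sp1, which binds GGGCGG. Windows from 250 bases before to 50 bases after a RefSeq transcript start (GRCm38.p6) were given for 25 of the 31 genes, 34 windows in all, and exact matches were sought on both strands. CCAAT was in the windows of 10 of 10 enzymes that fell and had a window, against 41.9% of the 12193 genes tested on the arrays. It was also in the windows of Lss, Tm7sf2 and Ebp, which did not pass the test, so enzymes that fell and those that did not pass held it alike. It was in 0 of 3 LXR and efflux genes with a window. The stretches that follow show it for the 5 enzymes that fell with the smallest adjusted p among those with a window, and for the 3 that did not pass, chosen after the matches were seen; capitals mark the CCAAT or its reverse complement, and each stretch ends at or before the transcript start.

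Sc5d: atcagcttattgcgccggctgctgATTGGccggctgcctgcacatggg
Cyp51: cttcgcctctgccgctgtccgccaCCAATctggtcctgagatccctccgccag
Msmo1: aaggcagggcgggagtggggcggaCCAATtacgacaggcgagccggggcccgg
Hsd17b7: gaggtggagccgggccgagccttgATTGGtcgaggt
Mvd: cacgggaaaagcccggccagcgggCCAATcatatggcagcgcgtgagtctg
Lss: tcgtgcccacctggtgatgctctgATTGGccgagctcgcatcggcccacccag
Tm7sf2: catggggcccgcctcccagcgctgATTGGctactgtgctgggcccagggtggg
Ebp: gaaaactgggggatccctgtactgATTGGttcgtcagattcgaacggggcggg

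These stretches lie at chr9:42264301-42264348 (Sc5d, minus strand), chr5:4104698-4104750 (Cyp51, minus), chr8:64733605-64733657 (Msmo1, minus), chr1:169969206-169969241 (Hsd17b7, minus), chr8:122443423-122443473 (Mvd, minus), chr10:76531519-76531571 (Lss, plus), chr19:6067869-6067921 (Tm7sf2, minus) and chrX:8193539-8193591 (Ebp, minus), all upstream of the first exon. The first base of the match lay 24 bases before the start in Sc5d, 29 in Cyp51, 55 in Msmo1, 12 in Hsd17b7, 27 in Mvd, 62 in Lss, 47 in Tm7sf2 and 55 in Ebp. In Msmo1 and in Ebp a GGGCGG lies within the same stretch.

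Over whole windows, GGGCGG was present in 9 of 10 enzymes that fell and in 3 of 3 that did not pass, against 58.5% of tested genes and 68.6% of those at or above the median brightness. For CCAAT the share among these brighter genes was 42.9%. A gene with several windows was counted if any of them held a match. By window, CCAAT was in 10 of 13 windows of the enzymes that fell, against 37.0% of windows of tested genes. The E-box CACGTG was in 3 of 10 enzymes that fell, against 10.4% of tested genes and 12.3% of the brighter ones. The sterol regulatory element core, written CACNCCAC, was in 0 of these 10 and in 7.39% of tested genes; it was found in Hmgcs1 and Acat2, which had no probe, and in Insig1. Such matches describe letters in a short window, and a missing match says only that these letters are not in it.

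**Figure D3:**
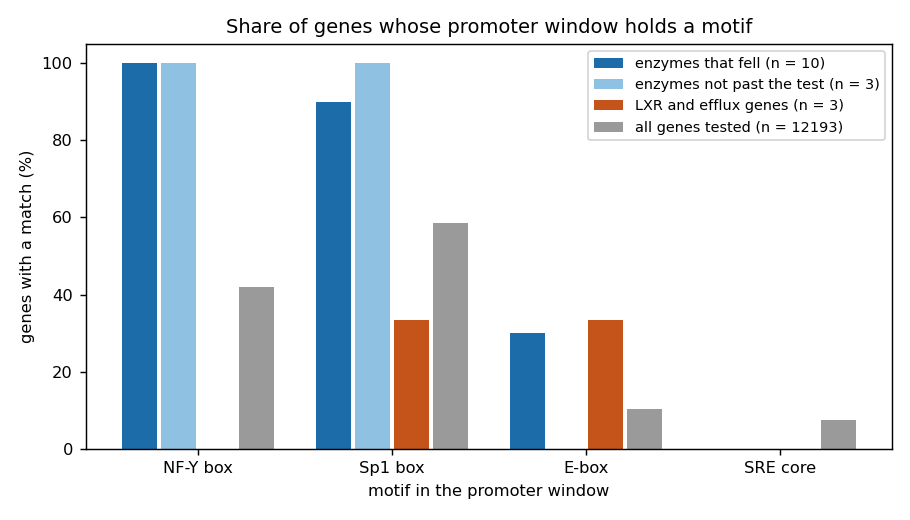
Share of genes (percent, vertical axis) whose promoter window holds each motif, for enzymes that fell (n = 10), enzymes not past the test (n = 3), LXR and efflux genes (n = 3) and all genes tested on the arrays (n = 12193). CCAAT bars stand at 100% for both enzyme groups and 41.9% for all genes, and the LXR and efflux genes have no CCAAT match.

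The regulators of SREBP split. Srebf2 encodes SREBP-2, the form that mainly drives sterol synthesis. It read 265, 261 and 334 in siControl and 152, 148 and 211 in siSpt6, with no overlap. Srebf2 fell 1.69-fold (log2 difference -0.76, SE 0.18, limma adjusted p = 0.0349), but the call failed when any 1 array other than siSpt6 replicate 3 was dropped (highest limma adjusted p = 0.103). Srebf1, whose SREBP-1 products mainly drive fatty acid synthesis, read 158, 161 and 214 in siControl and 147, 127 and 149 in siSpt6. The Srebf1 groups do not overlap, yet the log2 difference of -0.32 (95% confidence interval -0.70 to 0.05) did not pass the threshold (limma adjusted p = 0.23).

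Scap, the escort and sterol sensor, read 283, 322 and 357 in siControl and 208, 247 and 254 in siSpt6. Its values are lower without overlap, but the log2 difference of -0.44 (SE 0.14) missed the threshold (limma adjusted p = 0.085). It passed with bright probes only (limma adjusted p = 0.0257), with trend and robust options (0.0302) and with the replicate block (0.0471).

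The pair of Insig genes moved in opposite directions. Insig1, the retention factor that is itself a known SREBP target, read 375, 341 and 317 in siControl and 166, 144 and 108 in siSpt6. Insig1 fell 2.50-fold (log2 difference -1.32, 95% confidence interval -1.75 to -0.90, limma adjusted p = 0.00487). Insig2, the related retention factor that is not driven by SREBP in the same way, read 119, 148 and 118 in siControl and 357, 321 and 361 in siSpt6. Every siSpt6 value was more than double every siControl value, and Insig2 rose 2.71-fold (log2 difference 1.44, 95% confidence interval 1.11 to 1.76, limma adjusted p = 0.00159). Insig2 showed the largest rise of the 28 genes, above 98.8% of all tested probes. Both calls held without any 1 array (limma adjusted p at most 0.0206 for Insig1 and 0.00889 for Insig2).

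Of the 21 listed genes that passed the test, Insig1 was the only one whose promoter window, where given, held the sterol element core. The stretch, at chr5:28071379-28071411 on the plus strand of GRCm38.p6, is shown with the core in capitals as its reverse complement, starting 9 bases before the transcript start; the printed bases end just before that start.

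Insig1: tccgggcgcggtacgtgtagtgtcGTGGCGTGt

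The LXR and efflux genes were higher. Abca1, which loads cholesterol onto apolipoprotein A-I, read 30.1, 31.5 and 38.3 in siControl and 107, 65.1 and 86.9 in siSpt6. The siSpt6 values varied but were all above the siControl values, a 2.55-fold rise (log2 difference 1.35, SE 0.20, limma adjusted p = 0.00697). Abcg1, which exports cholesterol to lipoprotein particles, read 187, 187 and 189 in siControl and 430, 373 and 420 in siSpt6. Abcg1 rose 2.17-fold (log2 difference 1.12, SE 0.11, limma adjusted p = 0.00198).

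Nr1h3 encodes LXR alpha, the form most abundant in liver and macrophages. It was dim, with 70.3% of tested probes brighter, and read 5.71, 6.22 and 6.48 in siControl and 14.8, 13.9 and 15.1 in siSpt6. Nr1h3 rose 2.38-fold (log2 difference 1.25, SE 0.11, limma adjusted p = 0.00135), and with the pseudocount of 2.66 the log2 difference was 0.97. Nr1h2, which encodes the widely expressed LXR beta, read 74.0, 75.2 and 78.0 in siControl and 90.8, 98.0 and 103 in siSpt6. The groups do not overlap, but the log2 difference of 0.36 (SE 0.11) missed the threshold (limma adjusted p = 0.0745), and it passed after quantile normalization (0.0449), with bright probes only (0.0228) and with trend and robust options (0.044). Over the 4 genes the mean level relative to siControl was 1.11, 0.88 and 1.08 on the log2 scale in the siSpt6 samples.

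Abca1 and Nr1h3 are abundant in macrophages, so macrophage markers were read beside them. Of 9 with a probe, 0 rose and 0 fell, beside 8.9% of all probes called lower and 7.43% higher. With so few markers, such a count says little. Of the markers with 6 values, Marco and Mertk were higher without overlap (limma adjusted p = 0.166 and 0.0931), and 0 were lower. Over all probes with 6 values, 16.9% were higher and 20.4% lower without overlap. The summed intensity of the 9 markers was 263 to 306 in siControl and 297 to 382 in siSpt6. The defining marker Adgre1 read 9.03 ± 1.74 and 11.8 ± 1.96, and Itgam was near the lowest values on the array, at 1.82 ± 0.304 and 1.24 ± 0.097 (intensity ± SD, n = 3 each, except n = 2 for Itgam in siSpt6). Csf1r and Cd68 alone exceeded the array median on every array, at 60.5 ± 8.998 and 182 ± 25.1 in siControl and 65.3 ± 3.78 and 217 ± 47.0 in siSpt6. The summed T cell markers were 410 to 499 in siControl and 606 to 723 in siSpt6. Of those 8, Cd5, which B-1 type cells also carry, was the 1 that rose (381 ± 43.6 to 593 ± 68.7, limma adjusted p = 0.0272). The summed fibroblast markers were 61.8 to 104.9 in siControl and 48.8 to 57.6 in siSpt6, with 0 of 5 called. The value of 104.9 includes a Dcn reading of 48.78 on siControl replicate 2. Dcn read 4.35 and 2.02 on siControl replicates 1 and 3. All samples are of 1 B cell line, and whether other cells were present in them was not tested.

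**Figure D4:**
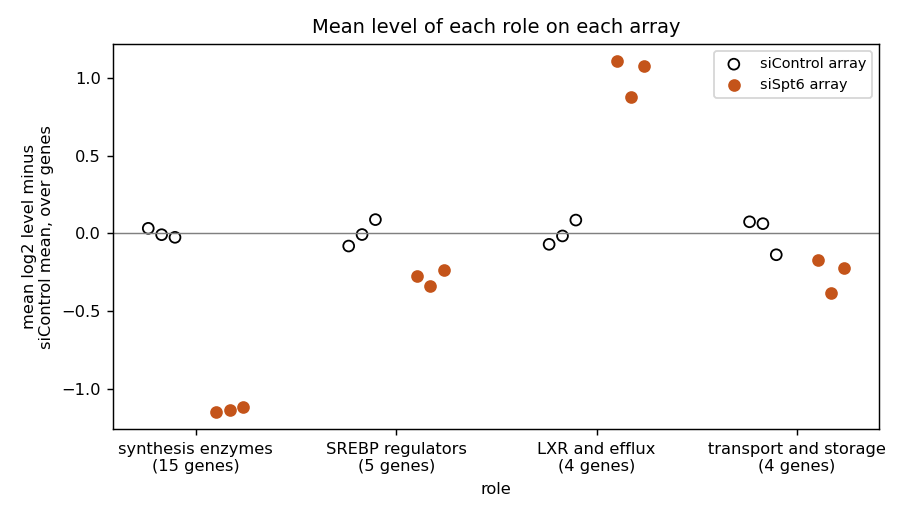
Mean log2 level of the genes of each role on each array, relative to the siControl mean of each gene; open circles are siControl arrays and filled circles siSpt6 arrays. Synthesis enzymes lie between -1.15 and -1.12 and LXR and efflux genes between 0.88 and 1.11 in the siSpt6 samples.

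Genes that carry sterols inside the cell moved unevenly. Stard4, a soluble sterol carrier and known SREBP-2 target, read 533, 538 and 417 in siControl and 157, 141 and 136 in siSpt6. It fell 3.41-fold (log2 difference -1.77, SE 0.14, limma adjusted p = 0.000956), a fall exceeded among the 28 genes by that of Msmo1. Npc1 and Npc2 pass cholesterol out of the lysosome, Npc2 handing it to Npc1 in the membrane. Npc1 read 270, 261 and 211 in siControl and 431, 507 and 457 in siSpt6, and rose 1.89-fold (log2 difference 0.92, SE 0.14, limma adjusted p = 0.00754).

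Npc2 read 1739, 1747 and 1769 in siControl and 2437, 1513 and 2628 in siSpt6. One siSpt6 value was under all siControl values and the other two were above them, so the groups overlap (log2 difference 0.28, 95% confidence interval -0.23 to 0.80, limma adjusted p = 0.437). Without siSpt6 replicate 2 the log2 difference was 0.53 (limma adjusted p = 0.0547). Soat1, which esterifies cholesterol for storage in droplets, read 39.2, 38.6 and 34.9 in siControl and 30.2, 25.5 and 26.3 in siSpt6. Soat1 fell 1.37-fold (log2 difference -0.46, SE 0.12), just past the threshold (limma adjusted p = 0.0491), and dropping any 1 of the 6 arrays ended the call (highest limma adjusted p = 0.133).

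Other genes of sterol metabolism showed where the pattern reached beyond the 28. Of 11 further genes of sterol synthesis and uptake, 6 were measured, of which 4 fell and 0 rose, where 8.9% of all probes were called lower and 7.43% higher. Most of the 6 were bright, and among bright probes tested alone 2515 of 10792 were lower and 1459 higher. Tmem97, which binds Npc1 and sterols, went from 475 ± 24.1 to 219.8 ± 13.4 (mean intensity and SD of 3 arrays, here and for the genes that follow), a 2.16-fold fall (limma adjusted p = 0.00206). Erg28, thought to hold the carbon 4 demethylation enzymes together, fell 2.03-fold from 1229 ± 65.9 to 605 ± 62.8 (limma adjusted p = 0.0037). The other two that fell were Lbr, a second sterol 14-reductase in the nuclear envelope, and Por, the electron donor of Cyp51 and Sqle, with log2 differences of -1.05 and -0.55; Lbr and Por were chosen after their values were seen. Lbr and Tm7sf2 catalyse the same step, and their log2 differences were -1.05 (95% confidence interval -1.49 to -0.61) and 0.20 (-0.33 to 0.73).

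Fatty acid genes that SREBP-1 is known to drive were lower as well, with 7 of 11 measured genes falling and 0 rising (median log2 difference -0.94), beside 8.9% of all probes called lower and 7.43% higher. Most of these genes were bright too, and among bright probes tested alone 2515 of 10792 were lower and 1459 higher. Fads2, the delta-6 desaturase, fell 2.71-fold from 121 ± 16.7 to 44.8 ± 7.87 (limma adjusted p = 0.00329). Fasn, fatty acid synthase, fell 2.26-fold from 809 ± 62.4 to 361 ± 59.9 (limma adjusted p = 0.00462). Both calls held without any 1 array.

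Branches that use farnesyl diphosphate for other products include prenylation and the synthesis of dolichol and ubiquinone. Of 14 measured genes 2 fell and 0 rose (median log2 difference -0.06), a count near the background of 8.9% of all probes called lower and 7.43% called higher. Rabggtb, a subunit of the enzyme that prenylates Rab proteins, fell 1.93-fold from 1958 ± 162 to 1018 ± 97.5 (limma adjusted p = 0.00514). Nus1, a subunit of the enzyme that starts dolichol synthesis, fell 1.64-fold (limma adjusted p = 0.0143), a call lost without siControl replicate 1 (limma adjusted p = 0.0508). Ggps1, which draws farnesyl diphosphate away from sterols, read 174 ± 36.7 and 175 ± 32.8 (log2 difference 0.02, 95% confidence interval -0.49 to 0.53). Ggps1 was chosen with its value in view.

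The machinery that cuts and degrades the SREBP system, with its DNA-binding partners, had 2 falls and 1 rise among 15 measured genes (median log2 difference -0.15), near the 8.9% lower and 7.43% higher of all probes. Nfyb, a subunit of the CCAAT-binding factor NF-Y, fell 1.57-fold from 372 ± 10.97 to 238 ± 6.70 (limma adjusted p = 0.00878), and its call held without any 1 array. Its partners Nfya and Nfyc, chosen with their values in view, did not pass (log2 differences -0.42 and 0.25, limma adjusted p = 0.255 and 0.216). Faf2, which helps draw ubiquitinated Insig1 from the membrane, fell 1.38-fold, and Erlin2, a membrane protein of the endoplasmic reticulum that takes part in protein degradation there, rose 1.37-fold. Dropping any 1 of the 6 arrays ended both calls, with the highest limma adjusted p at 0.0968 for Faf2 and 0.0913 for Erlin2.

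Of 13 further LXR-related genes measured, 1 rose and 1 fell (median log2 difference -0.17), near the 7.43% higher and 8.9% lower of all probes. Abca7, a relative of Abca1, rose 1.65-fold from 55.7 ± 2.69 to 92.3 ± 10.6 (limma adjusted p = 0.0125). Scarb1, a receptor for high-density lipoprotein, fell 1.55-fold (limma adjusted p = 0.0283), but not when siControl replicate 1 or 3 or siSpt6 replicate 1 or 2 was dropped (highest limma adjusted p = 0.0823). Apoe, an apolipoprotein and LXR target in macrophages, read 776 ± 37.6 and 601 ± 36.7 (log2 difference -0.37, limma adjusted p = 0.0733). Mylip, a ubiquitin ligase and LXR target, stayed near the lowest values on the array (1.68 ± 0.329 and 2.09 ± 1.03); Apoe and Mylip were chosen with their values in view.

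Of 18 other genes of sterol traffic 2 rose and 1 fell (median log2 difference 0.11), again near the 7.43% higher and 8.9% lower of all probes. Osbpl8, which exchanges lipids between endoplasmic reticulum and plasma membrane, rose 2.18-fold from 26.6 ± 6.26 to 57.5 ± 9.70 (limma adjusted p = 0.0143). Stard3, a late endosomal sterol carrier, rose 1.42-fold, and the dim Soat2, which like Soat1 esterifies cholesterol, fell 1.51-fold. The call of Stard3 held when siSpt6 replicate 1 was dropped and failed for each other array (highest limma adjusted p = 0.0874); that of Soat2 held when siControl replicate 3 was dropped and failed for each other array (0.119). Soat2 also lost its call with the pseudocount (limma adjusted p = 0.0618), with trend and robust options (0.107) and with the replicate block (0.06). Among 7 genes that make or modify oxysterols 1 rose and 0 fell (median log2 difference 0.40), beside 7.43% higher and 8.9% lower of all probes. With so few genes, such a count says little. Cyp7b1, which hydroxylates oxysterols, rose 1.70-fold from 5.65 ± 0.722 to 9.59 ± 0.640 (limma adjusted p = 0.0121). It was dim, with 74.8% of tested probes brighter. Ch25h, which makes 25-hydroxycholesterol, read 14.1 ± 1.87 and 13.7 ± 1.12 and was chosen with its value in view.

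**Figure D5:**
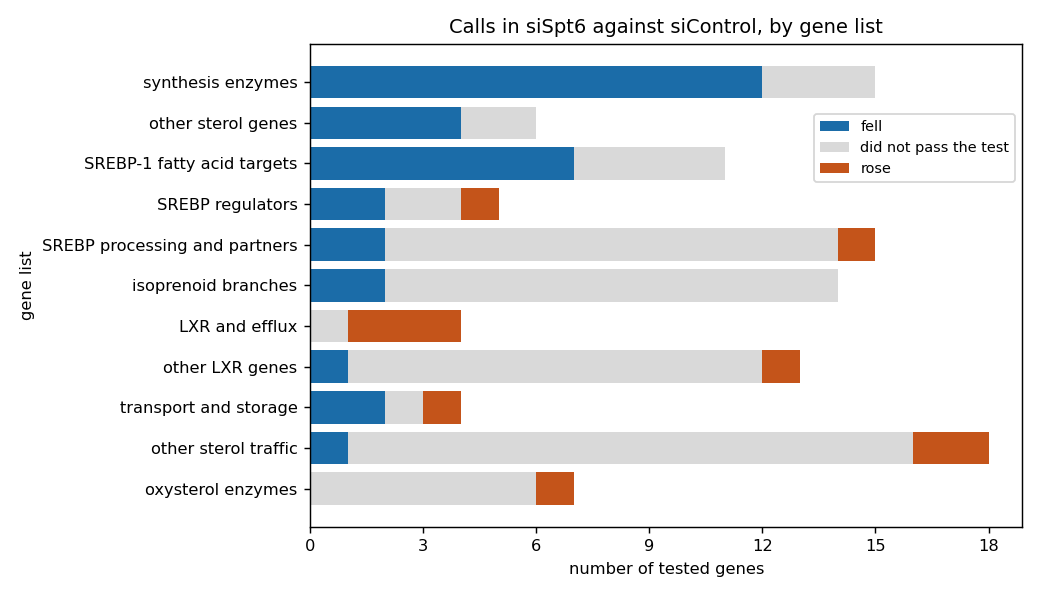
Number of tested genes (horizontal axis) that fell, rose or did not pass the test in siSpt6 against siControl, for each gene list (vertical axis). Falls fill 12 of 15 synthesis enzymes, 4 of 6 other sterol genes and 7 of 11 fatty acid targets, and rises 3 of 4 LXR and efflux genes.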

How the data were processed

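The deposited values are intensity readings of 6 arrays on a linear scale; per the labels' protocols, RNA was amplified, coupled to Cy5 and hybridised after the array maker's instructions. The array medians lay between 29.97 and 30, but the sources used here do not state how background was corrected or arrays were scaled. Blank values (4.69% to 8.29% per array) were taken as missing, and no detection limit is stated.

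Values were log2-transformed as deposited. A probe was tested with a value on at least 2 arrays in each group (21584 of 23473 probes), by group alone (limma 3.58.1, lmFit and eBayes, R 4.3.3, two-sided), with Benjamini-Hochberg adjustment over all tested probes and a threshold of 0.05. Probe symbols (16631 probes) were updated through RefSeq names; a gene with several probes was its brightest. The number of arrays limits the precision. Promoter windows came from RefSeq, GRCm38.p6, and served for sequence only.

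Every listed gene with a value was named, with Supt6 and, from each other list, up to 2 rises and 2 falls of smallest adjusted p; others are marked as chosen with their values in view. Some promoter stretches were likewise added beside the planned sterol element. The members, lists and tests were chosen with earlier results of these data known. Alternatives were a pseudocount of 2.66, quantile normalization, cyclic loess, array weights, median centring, each array left out and eBayes options (trend, robust). Further ones were a block for replicate number, tests on bright or on complete probes only, and, for the roles, the mean of a gene's probes. Each measured member had 1 probe, so averaging probes left the members' values unchanged. The array medians were nearly equal beforehand, so median centring could change little. The fit was tested on simulated data.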

Additional observations from a re-analysis of the deposited data

How the results depend on the processing

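Across the alternatives the enzymes that fell numbered 11 or 12, with Pmvk the 1 that was lost or, with bright probes only, not tested, and 0 rose; Insig2 was the 1 SREBP regulator that rose in each. The LXR and efflux genes that rose numbered 3 or 4. Leaving out 1 array gave between 1052 and 1421 lower probes and between 1047 and 1124 higher probes, 1 or 2 SREBP regulators that fell, and 1 transport or storage gene that fell in each case. The median of the transport and storage genes, -0.09, ran from -0.17 to 0.06 with 1 array left out, and was 0.057 after quantile normalization and 0.022 after cyclic loess. Supt6 passed after cyclic loess (limma adjusted p = 0.0491, against 0.0728 to 0.222 with 1 array left out). With the replicate block 1964 probes were lower and 1630 higher, Soat1 lost its call, leaving 1 transport gene that fell, and so did Pmvk (limma adjusted p = 0.0527 and 0.0631). Deviations from the group means correlated at 0.32, 0.07 and 0.24 between samples of equal number, and each sample correlated best with its own number. Between samples of unequal number the correlations ran from -0.255 to 0.02. The main test used no pairing because the labels do not say that equal numbers mark shared cultures. Whether they do was not tested. Dim genes such as Pmvk and Nr1h3 are limited by an unknown background.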
